A study of Mus musculus with 6 samples.

Results

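Organic ion carriers, bile acid and drug transporters and the ATP-binding cassette (ABC) pumps are the membrane proteins through which liver, kidney, intestine and lung move drugs, hormones, bile constituents and lipids. They were taken from the count table of mature medullary thymic epithelial cells (mTEChi) by gene symbol: the solute carrier families Slc10a, Slc15a, Slc22a, Slc47a and Slco, and the ABC subfamilies a, b, c, d and g. This gave 68 of the 15643 genes in the table, 33 solute carriers and 35 ABC transporters. Within the table the choice used the symbols alone, but it was made with earlier results of these data known. The table itself keeps only genes that reach 6 UMIs in some library.

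The libraries came from NOD mice aged 4.5 weeks and were made with MARS-seq, which counts captured 3′ ends of transcripts by unique molecular identifiers (UMIs). The 3 libraries of the Aire +/+ group are numbered 745, 750 and 753, and the 3 libraries of the Aire -/- group 746, 748 and 749. Values are given in that order throughout. The labels name no further allele or treatment, and they do not say how the Aire allele was made, how the cells were gated or whether a library holds 1 animal or a pool, so a p-value speaks of the spread among these 6 libraries, which may be technical.

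Aire is the transcriptional regulator with which mature medullary thymic epithelial cells switch on genes of many peripheral tissues, so that developing T cells meet those proteins before they leave the thymus. Solute carriers use ion gradients or exchange to carry their substrates, while ABC transporters spend ATP to pump theirs out of the cell or into an organelle. Several of these genes are textbook markers of hepatocytes, enterocytes or kidney tubules, and others, such as the mitochondrial and peroxisomal pumps, are used by nearly every cell.

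Library totals ran from 1014581 to 2887321 UMIs and were lower in every Aire−/− library than in every Aire+/+ library. Levels are therefore counts scaled to a common library depth (CPM) with edgeR's TMM factors, given as mean ± SD of 3 libraries. Medullary markers checked the cell-type label. Of the 15 listed genes, 14 were in the table and all of these passed the count filter. By edgeR's test 8 rose in the Aire−/− libraries, Aire itself among them, beside 8.59% of all genes tested. None fell by edgeR's test, at an unadjusted p under 0.05 or with DESeq2. Aire itself was counted at 6290, 6783 and 7290 UMIs in Aire+/+ and 4772, 8298 and 8372 UMIs in Aire−/− libraries. Its log2 fold change was 1.10 (edgeR adjusted p = 7.76e-05). A 3′ tag does not show whether the protein is made, and so does not check the genotype. Gapdh was nearly missing from library 753 (90 UMIs) and library 746 (28 UMIs), against 2245 to 4166 UMIs in the other libraries. Without both of these libraries, 5 transporter genes were called lower and 6 higher.

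The transporters as a whole took a share of the RNA that overlapped between genotypes, 1434 to 1484 CPM of the library total in Aire+/+ and 1405 to 1505 CPM in Aire−/−. A count filter kept 45 of the 68 genes among 11956 genes tested. Of these 45, edgeR's quasi-likelihood test at an adjusted p of 0.05 called 5 lower in Aire−/− (11.1%), 7 higher (15.6%) and 33 neither. Of the 5 lower genes, 3 passed the filter through the Aire+/+ libraries alone, so their direction was set by how they passed. Over all genes tested, 12.1% were called lower and 8.59% higher, the background against which the transporters' counts are read. The median log2 fold change of the 45 was 0.07, against -0.02 over all genes. Scaling by library totals alone moved both medians down, to -0.13 for the transporters and -0.22 for all genes, and gave 5 called lower and 4 higher, against 17.1% and 4.74% of all genes. In that scaling 55.6% of the transporter calls were lower, against 41.7% with TMM factors, and 78.3% against 58.5% over all genes. DESeq2 gave 5 lower and 7 higher, against 10.2% and 6.9% of all genes. Leaving out library 745 or library 753 also left 4 called higher.

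The calls by family are to be read beside the shares over all genes tested, 12.1% lower and 8.59% higher. With so few genes tested in a family, the absence of a call is not a result about that family. The Slc22a family held 3 of the 5 lower and 4 of the 7 higher genes, from 11 tested, and Slco held 2 higher genes from 5 tested. The Abca family held 2 lower genes from 7 tested and Abcc 1 higher gene from 6 tested. No gene of Abcb (5 tested), Abcd (3), Abcg (3), Slc10a (3) or Slc15a (2) was called by edgeR or DESeq2, and none of these reached an unadjusted p under 0.05. Among the 33 genes not called, no log2 fold change was larger than 0.43 in size. Over all solute carriers 3 were called lower and 6 higher, but 5 lower without library 748 and 3 higher without library 745 or 753. The difference between families was not tested.

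**Figure D1:**
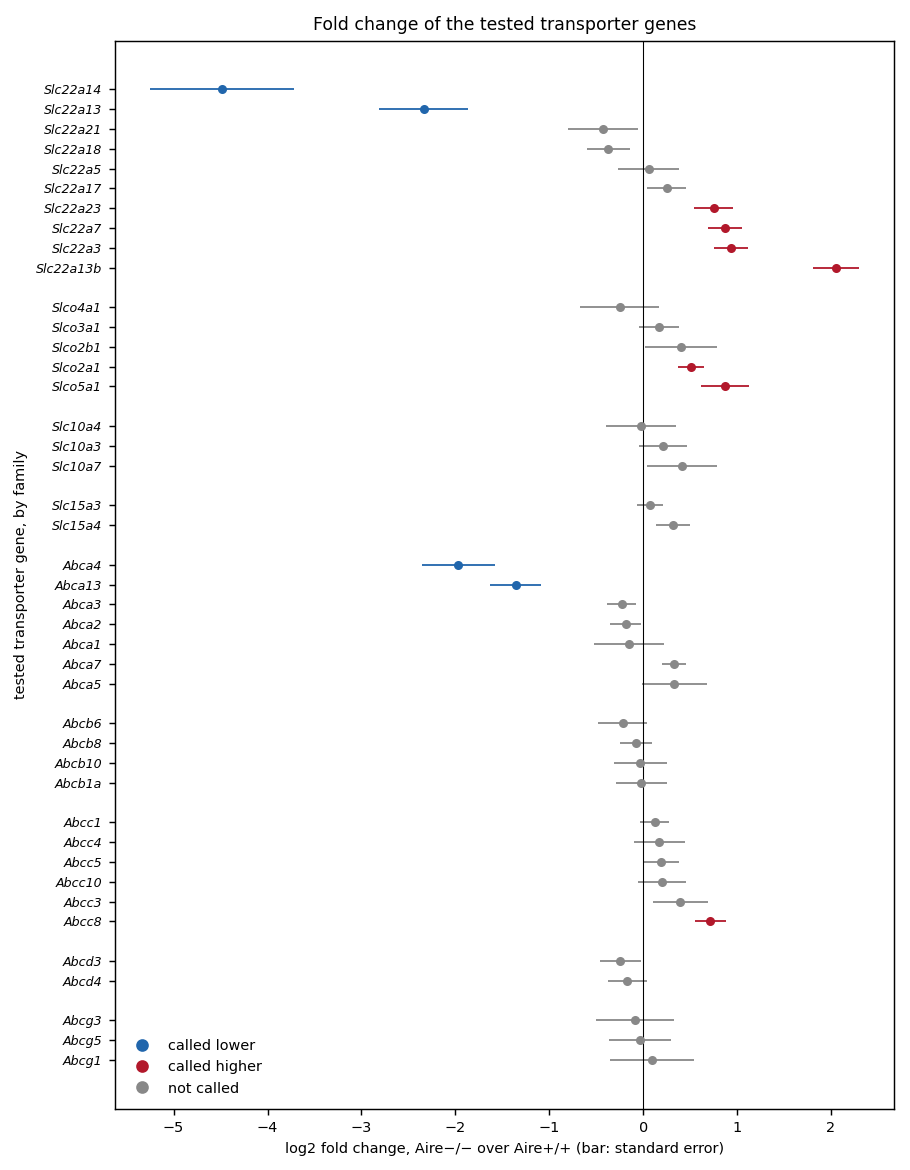
Log2 fold change of Aire−/− over Aire+/+ libraries for the tested transporter genes reported here, grouped by family, with the standard error as a bar; blue points were called lower, red points higher and grey points neither. Slc22a14 at -4.48 and Slc22a13 at -2.34 stand far to the left, while the grey points lie within 0.43 of 0.

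The organic cation carriers Slc22a2 and Slc22a3 lie near each other on chromosome 17 (build GRCm38, the same as mm10) and did not differ the same way. Slc22a2, the cation carrier of the kidney tubule, spans chr17:12584132-12628488 on the plus strand and gave 8, 6 and 10 UMIs in Aire+/+ libraries but 0 in each Aire−/− library. Its Aire+/+ level was 2.65 ± 0.69 CPM, too low for the count filter. Against a floor of 3 UMIs over the Aire−/− group it was at least 3.95-fold lower there. In bulk libraries such as these, fewer cells of a type and less RNA per cell cannot be told apart. Slc22a3, which clears monoamines outside neurons, spans chr17:12418960-12507704 on the minus strand. Its UMI counts were 103, 73 and 90 in Aire+/+ and 48, 105 and 101 UMIs in Aire−/− libraries, the 48 coming from the shallowest library. As levels these were 33.8, 24.1 and 30.2 CPM against 49.3, 56.5 and 61.7 CPM, so all Aire−/− libraries lay above all Aire+/+ libraries. Slc22a3 rose 1.91-fold (log2 fold change 0.94, SE 0.18, edgeR adjusted p = 0.00205). In the annotation used here its 3′ end runs into Plg, which lies on the opposite strand. Plg gave 4, 3 and 8 UMIs in Aire+/+ and 0, 1 and 0 UMIs in Aire−/− libraries, and whether the authors counted by strand is not given in the sources used here.

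The windows before the starts of Slc22a2 and Slc22a3 are shown because these neighbours differed between genotypes in opposite directions. RefSeq promoter windows (GRCm38.p6) were found for 48 of the 68 genes. Each sequence is the 250 bases before the RefSeq start, 5′ to 3′ on the gene's strand, with CG pairs in capitals. The window of Slc22a2 is chr17:12583939-12584188 (plus strand) and that of Slc22a3 is chr17:12507705-12507954 (minus strand).
Slc22a2: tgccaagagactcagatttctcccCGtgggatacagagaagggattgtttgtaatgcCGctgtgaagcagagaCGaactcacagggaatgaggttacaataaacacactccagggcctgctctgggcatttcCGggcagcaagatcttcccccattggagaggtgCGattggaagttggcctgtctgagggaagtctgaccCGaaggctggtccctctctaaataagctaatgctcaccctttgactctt
Slc22a3: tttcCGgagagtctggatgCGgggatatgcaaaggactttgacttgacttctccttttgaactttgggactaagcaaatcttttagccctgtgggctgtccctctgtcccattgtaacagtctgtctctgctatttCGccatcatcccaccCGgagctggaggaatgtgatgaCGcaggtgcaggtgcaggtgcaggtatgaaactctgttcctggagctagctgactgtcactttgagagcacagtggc
Slc22a2 holds 6 CG pairs and Slc22a3 holds 5, beside a median of 6 over all 32841 windows of this length. Of the motifs searched on both strands, TATAAA is in 12.4% of all windows, CCAAT in 33.9% and GGGCGG in 32.7%. CAAAGTCCA, a core of the HNF4 site, is in 0.384%. Full sites of the direct repeat of nuclear receptors and of the inverted repeat of the bile acid receptor FXR, searched the same way, are in 0.0152% and 0.00609%. The window of Slc22a2 holds CCAAT, and that of Slc22a3 none of these motifs.

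Map3k4, Igf2r and Airn, further genes on this stretch of chromosome 17 that passed the filter, gave 1 call. Map3k4, a stress kinase, was at 19.8 ± 5.18 CPM and 20.2 ± 3.37 CPM. Igf2r, the receptor that clears insulin-like growth factor 2, was at 20.3 ± 5.59 CPM in Aire+/+ and 31.8 ± 10.4 CPM in Aire−/− (log2 fold change 0.66, edgeR adjusted p = 0.106). Airn, the imprinted noncoding transcript that runs antisense to Igf2r, was counted at 14, 17 and 17 UMIs against 20, 29 and 23 UMIs. Airn rose by 1.62 on the log2 scale (edgeR adjusted p = 0.00172), with all Aire−/− libraries above all Aire+/+ libraries. Reads of an antisense pair cannot be told apart without strand. Slc22a2, at 0 UMIs in Aire−/−, lies between Slc22a3 on one side and Airn on the other, both called higher. Airn is not its direct neighbour, since Igf2r, which was not called, starts between Slc22a2 and Airn and overlaps Airn.

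The proton-coupled exporters Slc47a1 and Slc47a2, which pass organic cations on into urine and bile, are also neighbours, on chromosome 11, and both were below the filter. Slc47a2 gave 10, 12 and 10 UMIs in Aire+/+ and 0, 2 and 0 UMIs in Aire−/− libraries. That is 7.90 times fewer at equal TMM-scaled depth (95% counting interval 2.01 to 68.0). Slc47a1 gave 9, 10 and 5 UMIs against 1, 3 and 1 UMIs. For both genes every Aire−/− library lay below every Aire+/+ library on the CPM scale. Among Slc22a2, Slc22a3, Slc47a1 and Slc47a2, Slc22a3 alone was higher in the Aire−/− libraries.

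A second cluster, on chromosome 9, held 3 Slc22 genes on the minus strand that likewise did not move together. Slc22a13, a nicotinate and urate exchanger of the kidney brush border, spans chr9:119192974-119209098. It was counted at 45, 37 and 23 UMIs in Aire+/+ and 2, 2 and 6 UMIs in Aire−/− libraries. All Aire−/− libraries were low, between 1.08 and 3.67 CPM, and did not overlap the Aire+/+ range of 7.72 to 14.8 CPM. Slc22a13 fell by 2.34 on the log2 scale (SE 0.48, edgeR adjusted p = 0.00326). It passed the count filter through the Aire+/+ libraries alone, so its direction was set by how it passed. Without library 749, which held 6 of the UMIs, its log2 fold change was -2.98.

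Slc22a14, a carrier known from sperm, starts beyond the 3′ end of Slc22a13 in RefSeq. Its libraries gave 16, 24 and 16 UMIs in Aire+/+ and 0, 0 and 1 UMIs in Aire−/−. At equal TMM-scaled depth it was 27.6 times rarer in Aire−/− (95% counting interval 4.76 to 1111). Its log2 fold change was -4.48 (SE 0.77, edgeR adjusted p = 0.000977). Like Slc22a13, it passed the count filter through the Aire+/+ libraries alone. Only library 749 of the Aire−/− group held a molecule of it, and without library 749 or 748 the fitted log2 fold change was -6.89 or -3.84, against -4.48 with all libraries. A long GENCODE transcript carries its span to chr9:119169455-119365553, over Slc22a13, Slc22a13b and other genes. No exon of Slc22a14 lies in the 3′ ends of Slc22a13 and Slc22a13b, and the 3′ ends of the other genes were not checked.

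Slc22a13b, a close paralogue of Slc22a13 that mice carry beside it and that the annotation lists as a polymorphic pseudogene, spans chr9:119220488-119231692. Counts were 23, 18 and 23 UMIs in Aire+/+ and 33, 49 and 48 UMIs in the shallower Aire−/− libraries. In CPM it went from 7.07 ± 0.98 to 29.9 ± 3.79, a 4.15-fold rise (log2 fold change 2.05, SE 0.25, edgeR adjusted p = 6.43e-05). The lowest Aire−/− library, at 26.4 CPM, lay above the highest Aire+/+ library, at 7.72 CPM. This was the most positive fold change of the 45 tested transporter genes. A search of the last 300 bases of the members' transcripts found no match of at least 80 bases and 90% identity between Slc22a13 and Slc22a13b.

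The windows of the pair that fell are shown as the counterpart on chromosome 9 of those above, again with CG pairs in capitals. The window of Slc22a13 is chr9:119209106-119209355 and that of Slc22a14 is chr9:119190396-119190645, both on the minus strand.
Slc22a13: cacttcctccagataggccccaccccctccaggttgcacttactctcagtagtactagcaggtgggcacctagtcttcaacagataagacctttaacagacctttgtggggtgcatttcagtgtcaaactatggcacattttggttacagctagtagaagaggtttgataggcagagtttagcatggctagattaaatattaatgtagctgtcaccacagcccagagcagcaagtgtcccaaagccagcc
Slc22a14: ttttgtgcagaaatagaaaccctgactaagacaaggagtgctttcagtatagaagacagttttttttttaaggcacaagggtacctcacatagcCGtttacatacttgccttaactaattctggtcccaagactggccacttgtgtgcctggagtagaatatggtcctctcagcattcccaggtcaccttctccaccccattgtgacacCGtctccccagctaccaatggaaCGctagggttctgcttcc
Slc22a13 holds 0 CG pairs and Slc22a14 holds 3. The window of Slc22a14 holds CCAAT, and that of Slc22a13 none of these motifs.

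Around the chromosome 9 cluster, 3 neighbouring genes were called. Vill, a villin-like actin-binding protein, was counted at 31, 33 and 33 UMIs against 0, 0 and 1 UMIs and fell by 5.27 on the log2 scale (edgeR adjusted p = 9.03e-05). Acaa1b, a peroxisomal thiolase, fell by 1.15 (edgeR adjusted p = 0.00141). Oxsr1, a stress-responsive kinase, rose by 0.82 (edgeR adjusted p = 0.0236). Ctdspl, Plcd1, Dlec1, Myd88, Acaa1a and Xylb, which lie around them, were tested and not called.

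**Figure D2:**
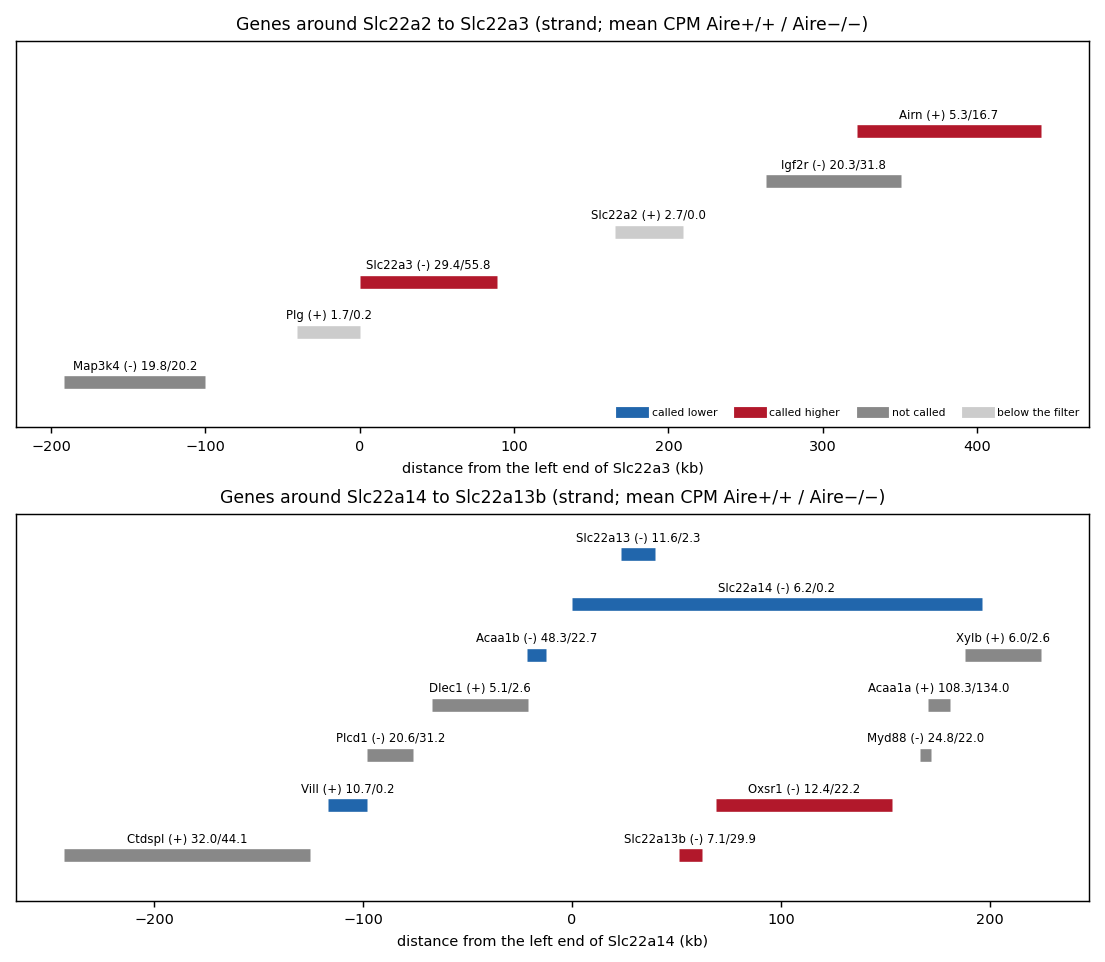
Genes around the chromosome 17 and chromosome 9 clusters, drawn to scale as bars by distance in kb and staggered vertically for legibility, with strand and mean CPM of Aire+/+ and Aire−/− libraries; blue was called lower, red higher, dark grey neither, and light grey was below the filter. Slc22a2 at 0.0 CPM in Aire−/− stands between the red genes Slc22a3 at 55.8 CPM and Airn at 16.7 CPM, with Igf2r in dark grey starting before Airn. Slc22a13b (7.1 to 29.9 CPM) stands next to Slc22a13 (11.6 to 2.3 CPM).

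Among the remaining organic anion carriers of Slc22, Slc22a7, the hepatic and renal carrier of glutamate, cyclic GMP and prostaglandins, rose. It spans chr17:46432183-46438457 on the minus strand. It was counted at 103, 90 and 84 UMIs in Aire+/+ and 46, 98 and 109 UMIs in Aire−/− libraries. In CPM these were 33.8, 29.7 and 28.2 against 47.2, 52.7 and 66.6, and the groups did not overlap. The rise was 1.83-fold (log2 fold change 0.87, SE 0.18, edgeR adjusted p = 0.00313). The others were below the filter and lower in the Aire−/− libraries. Slc22a20, an odorant and steroid sulfate carrier of the olfactory epithelium, gave 8, 8 and 9 UMIs in Aire+/+ but 0 throughout Aire−/−, which is at least 4.11-fold lower. Slc22a30 gave 1, 6 and 3 UMIs against 0 in each, or at least 1.65-fold lower. Slc22a22, a prostaglandin carrier of the kidney, gave 9, 7 and 2 UMIs against 0, 0 and 1 UMIs. That is 8.88 times fewer at equal TMM-scaled depth (95% counting interval 1.40 to 370.1).

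Slc22a23, an orphan member of the family at chr13:34179158-34345182 on the minus strand, was counted at 74, 77 and 83 UMIs in Aire+/+ and 32, 104 and 64 UMIs in Aire−/− libraries. Its level was 25.9 ± 1.83 CPM against 42.6 ± 11.9 CPM, with library 748 the highest at 55.9 CPM and no overlap. Slc22a23 rose by 0.75 on the log2 scale (SE 0.21, edgeR adjusted p = 0.0202). The call was lost when library 745, 750, 753 or 748 was left out, with adjusted p of 0.0833, 0.0658, 0.0523 and 0.141, and with library totals alone (0.0795). Slc22a17, the cell-surface receptor of the iron carrier lipocalin 2, gave 89, 94 and 126 against 49, 67 and 62 UMIs, or 34.2 ± 7.09 CPM and 41.4 ± 7.76 CPM, with overlap and no call (log2 fold change 0.25, SE 0.20, edgeR adjusted p = 0.443). Its ligand Lcn2, which is not a transporter gene, was counted at 378, 381 and 307 UMIs against 30, 50 and 24 UMIs and fell by 2.32 on the log2 scale (edgeR adjusted p = 1.02e-05). Slc22a18, an organic cation exchanger, was at 24.8 ± 2.79 CPM and 19.3 ± 4.66 CPM and was not called.

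The carnitine and zwitterion carriers, which feed fatty acid oxidation and carry ergothioneine, did not pass the test. Slc22a5, the main carnitine carrier, was counted at 19, 22 and 27 against 8, 16 and 11 UMIs, or 7.52 ± 1.43 CPM and 7.85 ± 0.99 CPM (log2 fold change 0.06, SE 0.32, edgeR adjusted p = 0.924). Its neighbour Slc22a21, a carnitine carrier with a near-identical 3′ end (99.6% over the matched bases), was at 8.40 ± 1.48 CPM and 6.04 ± 2.74 CPM, so how the authors' counting split reads between the pair is uncertain. Slc22a4, the ergothioneine carrier, gave 6, 3 and 4 UMIs against 0, 1 and 1 UMIs. That is 3.21 times fewer at equal TMM-scaled depth, and the 95% counting interval, 0.73 to 29.3, includes 1. Slc22a15 gave 10, 11 and 13 UMIs against 3, 9 and 4 UMIs, and its CPM ranges overlapped.

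**Figure D3:**
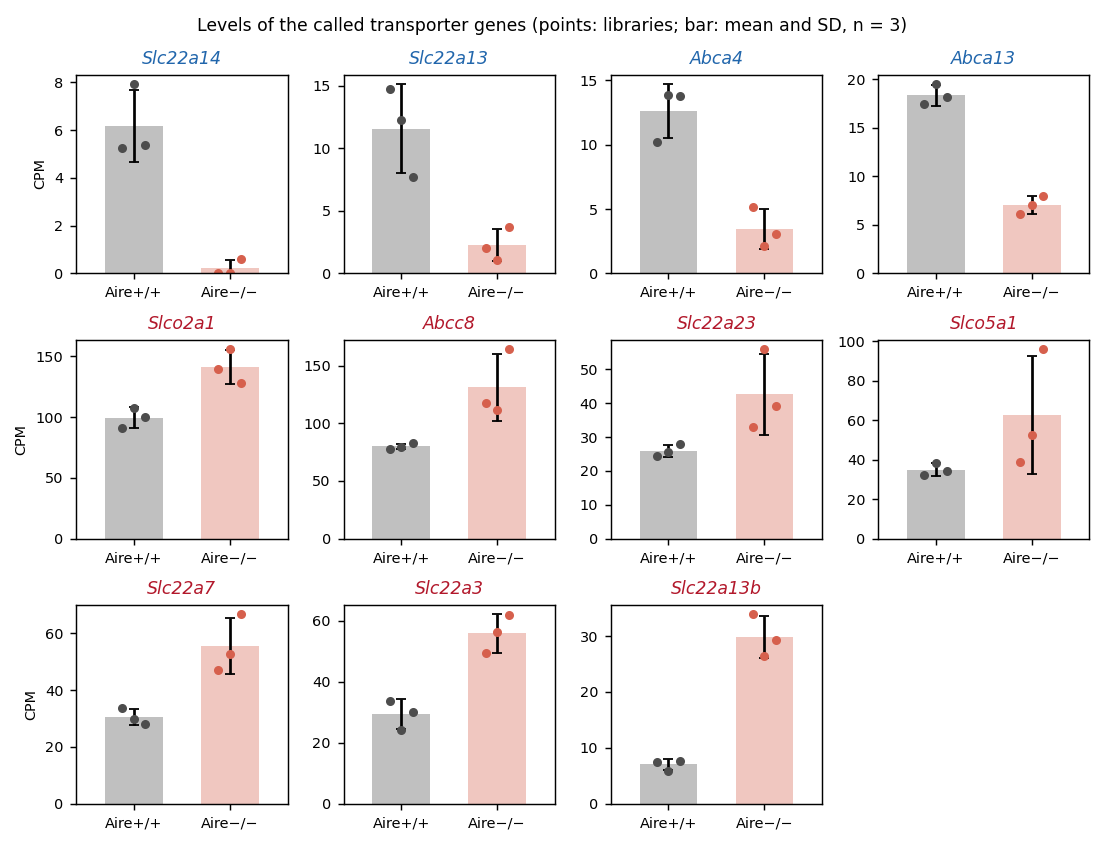
CPM of the called transporter genes reported here in each library (points), with the mean (bar) and SD (line) of the 3 Aire+/+ and 3 Aire−/− libraries; blue titles were called lower and red titles higher. In each panel the groups do not overlap, and Slco5a1 shows the widest Aire−/− spread, from 39.0 to 96.0 CPM.

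Among the organic anion transporting polypeptides (Slco), which carry hormones, bile acids and prostaglandins, 2 of 5 tested genes rose. None was called lower by edgeR, by DESeq2 or at an unadjusted p under 0.05. Over all genes tested, edgeR called 8.59% higher and 12.1% lower. Slco2a1, the prostaglandin transporter that clears prostaglandin E2 for breakdown, was the third most counted transporter of all 68 and spans chr9:102988712-103096002 on the plus strand. Its UMI counts were 277, 326 and 299 in Aire+/+ and 136, 290 and 210 UMIs in Aire−/− libraries. Its level went from 99.6 ± 8.45 CPM to 141 ± 13.9 CPM, a 1.42-fold rise with no overlap (log2 fold change 0.51, SE 0.14, edgeR adjusted p = 0.0197). The call was lost without library 745, 753 or 748 (adjusted p = 0.108, 0.0770 and 0.0951), without libraries 753 and 746 together (0.0769) and with library totals alone (0.145).

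Prostaglandin enzymes were set beside it after its values were seen. Ptgs2, the inducible cyclooxygenase, rose by 0.71 on the log2 scale (edgeR adjusted p = 0.0407). Ptges, the prostaglandin E synthase, and Hpgd, which breaks prostaglandins down, had log2 fold changes of 0.23 and 0.33 and were not called.

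Slco5a1, an orphan carrier at chr1:12866549-12992650 on the minus strand, was counted at 98, 116 and 102 UMIs in Aire+/+ and 38, 98 and 157 UMIs in Aire−/− libraries. Its CPM were 32.1, 38.3 and 34.2 against 39.0, 52.7 and 96.0, so library 749 stood high and library 746 came within 1 CPM of the highest Aire+/+ library. Slco5a1 rose 1.83-fold (log2 fold change 0.87, SE 0.26, edgeR adjusted p = 0.0293). Without library 749 the log2 fold change was 0.43 (adjusted p = 0.130), without library 745, 750 or 753 the adjusted p was 0.114, 0.0621 or 0.0976, and with library totals alone it was 0.0705.

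The other Slco genes were not called or were too low to test. Slco3a1, a carrier of prostaglandins and thyroid hormone, was at 24.8 ± 5.13 CPM and 27.9 ± 2.87 CPM. Slco4a1, a thyroid hormone carrier, gave 37, 31 and 36 against 18, 7 and 16 UMIs, or 11.5 ± 1.08 CPM and 10.7 ± 7.398 CPM (log2 fold change -0.25, SE 0.42, edgeR adjusted p = 0.736), with Aire−/− libraries from 3.77 to 18.5 CPM. Slco2b1, which carries steroid sulfates, gave 21, 11 and 21 against 11, 12 and 11 UMIs, or 5.86 ± 1.93 CPM and 8.16 ± 2.72 CPM (log2 fold change 0.40, SE 0.39, edgeR adjusted p = 0.524). For these 3 genes the libraries of the genotypes overlapped. Slco1c1, the thyroxine carrier of the blood-brain barrier, gave 6, 4 and 11 UMIs in Aire+/+ but 0 throughout Aire−/−, which is at least 3.45-fold lower. Slco1a5, a bile acid and hormone carrier, gave 14, 10 and 13 UMIs against 0, 0 and 1 UMIs. That is 18.3 times fewer at equal TMM-scaled depth (95% counting interval 3.08 to 740.5). The last 300 bases of Slco1a5 match 5 other annotated genes, Slco1a1, Slco1a4 and Slco1a6 among them, at 90.7% to 94.7% identity, so its reads are uncertain.

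Bile acid transport itself was thinly represented. The uptake carriers Slc10a1 of hepatocytes and Slc10a2 of the ileum were not among the genes of the count table, so they could not be analysed. Of the 5 Slc10a genes in the table, none was called. Slc10a3, an orphan, was at 16.2 ± 3.05 CPM and 19.2 ± 4.02 CPM. Slc10a4, a protein of synaptic vesicles, was at 9.26 ± 4.35 CPM and 8.997 ± 1.07 CPM. Slc10a7, needed for bone and cartilage growth, was at 5.73 ± 1.28 CPM and 7.92 ± 2.75 CPM. Slc10a6, a carrier of sulfated steroids, gave 6, 8 and 11 UMIs against 1, 2 and 4 UMIs. Slc10a4l gave 7, 15 and 8 UMIs against 2, 3 and 7 UMIs. Its 3′ end is 91.3% identical to that of Slc10a4, so the split between the pair is uncertain.

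At the bile canaliculus, hepatocytes use separate pumps for bile salts, phospholipid, conjugates and sterols. Abcb11, the bile salt export pump, gave 7, 3 and 13 UMIs in Aire+/+ and 4, 8 and 16 UMIs in Aire−/− libraries. Its level was 2.55 ± 1.70 CPM and 6.06 ± 3.22 CPM, and the ranges overlapped. Abcb4, which flips phosphatidylcholine into bile, gave 13, 6 and 5 UMIs against 0, 4 and 0 UMIs, also with overlap. Abcc2, the conjugate pump, gave 4, 1 and 6 UMIs against 0 throughout Aire−/−, which is at least 1.81-fold lower. The partners of the sterol pump, Abcg5 and Abcg8, are neighbours on opposite strands of chromosome 17. Abcg5 gave 25, 21 and 18 against 6, 14 and 11 UMIs, or 7.06 ± 1.08 CPM and 6.81 ± 0.69 CPM, with overlap and no call (log2 fold change -0.03, SE 0.33, edgeR adjusted p = 0.966), and Abcg8 gave 3, 3 and 11 UMIs against 1, 2 and 7 UMIs.

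The lysosomal peptide and histidine carriers were among the more abundant transporters. Slc15a3 was counted at 304, 348 and 373 UMIs in Aire+/+ and 109, 213 and 212 UMIs in Aire−/− libraries, which is 113 ± 12.8 CPM and 119 ± 9.54 CPM with overlapping libraries (log2 fold change 0.07, SE 0.14, edgeR adjusted p = 0.782). Its 3′ end overlaps Tmem132a on the opposite strand, which was at 43.1 ± 4.54 CPM and 38.1 ± 10.7 CPM. Slc15a4, which supports Toll-like receptor signalling in endolysosomes, gave 97, 104 and 78 against 40, 65 and 65 UMIs, or 30.8 ± 4.18 CPM and 38.6 ± 3.21 CPM. All its Aire−/− libraries, from 34.96 to 41.1 CPM, lay above all Aire+/+ libraries, from 26.2 to 34.4 CPM. It was not called (log2 fold change 0.32, SE 0.18, edgeR adjusted p = 0.261).

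The drug and conjugate efflux pumps showed no call in either direction among 6 tested genes, by edgeR, by DESeq2 or at an unadjusted p under 0.05. With 6 genes this is to be read beside 12.1% lower and 8.59% higher over all genes tested by edgeR. Abcc1, which exports glutathione conjugates and leukotriene C4, was counted at 241, 316 and 310 UMIs in Aire+/+ and 103, 214 and 150 UMIs in Aire−/− libraries. Its level was 95.8 ± 14.5 CPM and 104 ± 11.8 CPM (log2 fold change 0.12, SE 0.16, edgeR adjusted p = 0.649). Abcb1a, a P-glycoprotein of drug barriers, gave 47, 49 and 56 against 10, 40 and 26 UMIs, or 16.8 ± 1.77 CPM and 15.9 ± 5.62 CPM (log2 fold change -0.02, SE 0.27, edgeR adjusted p = 0.973). Abcc3, the basolateral conjugate pump of liver and gut, gave 34, 26 and 26 against 11, 20 and 25 UMIs, or 9.49 ± 1.44 CPM and 12.4 ± 2.47 CPM (log2 fold change 0.40, SE 0.29, edgeR adjusted p = 0.391). Abcc1, Abcb1a and Abcc3 all overlapped between genotypes. Abcc4, which exports cyclic nucleotides, gave 39, 55 and 63 against 19, 28 and 40 UMIs, or 17.4 ± 4.24 CPM and 19.7 ± 4.698 CPM (log2 fold change 0.17, SE 0.27, edgeR adjusted p = 0.712). Abcc5, a relative of Abcc4, and Abcc10 had log2 fold changes of 0.19 and 0.20.

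Abcb1b, the second P-glycoprotein of mice, gave 4, 21 and 10 UMIs against 3, 2 and 6 UMIs and was below the filter. Some annotated transcripts of Abcb1a, Abcb1b and Abcb4, which sit in a row on chromosome 5, share 3′ stretches at 96.3% to 98.9% identity, so counts within this trio are uncertain. Abcg2, the breast cancer resistance protein that exports urate and drugs, gave 23, 10 and 28 UMIs in Aire+/+ and 0, 1 and 5 UMIs in Aire−/− libraries. Its CPM were 7.54, 3.30 and 9.40 against 0, 0.54 and 3.06, so every Aire−/− library lay below every Aire+/+ library. Abcg2 missed the filter. In the authors' deposited table it was selected as higher in Aire+/+, with a log2 fold change of 2.36 and an adjusted p of 0.0453.

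Of the lipid transporters, 2 of 8 tested genes fell, beside 12.1% lower and 8.59% higher over all genes tested by edgeR. None was called higher by edgeR or DESeq2, with 1 higher at an unadjusted p under 0.05. Abca4, the retinoid flippase of photoreceptor discs, spans chr3:122044443-122180123 on the plus strand. It was counted at 31, 42 and 41 UMIs in Aire+/+ and 5, 4 and 5 UMIs in Aire−/− libraries. Its level went from 12.6 ± 2.11 CPM to 3.45 ± 1.53 CPM, and the highest Aire−/− library, at 5.13 CPM, lay below the lowest Aire+/+ library, at 10.2 CPM. Abca4 fell by 1.97 on the log2 scale (SE 0.39, edgeR adjusted p = 0.00258).

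Abca13, a very large lipid transporter whose substrate in most tissues is not settled, spans chr11:9191942-9684259 on the plus strand. Its libraries gave 53, 59 and 54 UMIs in Aire+/+ and 6, 13 and 13 UMIs in Aire−/−. Both groups were tight, at 18.3 ± 1.07 CPM and 7.03 ± 0.89 CPM, and did not overlap. Abca13 fell by 1.35 on the log2 scale (SE 0.27, edgeR adjusted p = 0.00287).

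Abca7, a phospholipid transporter that also supports phagocytosis, was the most counted transporter, with 10.8% of all UMIs of the 68 genes. It gave 421, 464 and 407 against 173, 312 and 314 UMIs, or 143 ± 9.23 CPM and 179 ± 12.1 CPM. All Aire−/− libraries lay above all Aire+/+ libraries, but the gene was not called (log2 fold change 0.33, SE 0.13, edgeR adjusted p = 0.0935). Abca2, a lysosomal lipid transporter, was at 37.1 ± 1.97 CPM and 32.5 ± 1.20 CPM, with no overlap and no call (edgeR adjusted p = 0.485). Abca3, which loads surfactant lipid into lamellar bodies, gave 176, 189 and 167 against 46, 83 and 95 UMIs, or 58.7 ± 3.31 CPM and 49.98 ± 7.13 CPM with overlapping libraries (log2 fold change -0.23, SE 0.16, edgeR adjusted p = 0.356). Its 3′ end overlaps a noncoding gene on the opposite strand.

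The cholesterol exporters did not pass the test. Abca1, which loads apolipoprotein A1, was counted at 36, 21 and 26 UMIs in Aire+/+ and 6, 11 and 20 UMIs in Aire−/− libraries, or 9.16 ± 2.46 CPM and 8.10 ± 3.57 CPM (log2 fold change -0.15, SE 0.37, edgeR adjusted p = 0.827). Abcg1, which loads mature lipoprotein particles, gave 26, 19 and 8 against 5, 10 and 13 UMIs, or 5.83 ± 2.95 CPM and 6.15 ± 1.56 CPM (log2 fold change 0.10, SE 0.44, edgeR adjusted p = 0.909). Both overlapped between genotypes. Abca5 had a log2 fold change of 0.33. Abcg4 gave 6, 3 and 2 UMIs against 2, 0 and 3 UMIs. Abca14, a testis transporter of mice, gave 6, 3 and 5 UMIs against 0 throughout Aire−/−, which is at least 2.30-fold lower.

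Pumps of mitochondria, peroxisomes and lysosomes showed no call among 7 tested genes, by edgeR, by DESeq2 or at an unadjusted p under 0.05. Their ranges overlapped in every case. Over all genes tested, edgeR called 12.1% lower and 8.59% higher. Abcd3, which brings branched fatty acids and bile acid precursors into the peroxisome, gave 164, 112 and 163 against 29, 70 and 87 UMIs, or 48.5 ± 9.97 CPM and 40.2 ± 11.9 CPM (log2 fold change -0.24, SE 0.22, edgeR adjusted p = 0.502). Abcb10, needed for haem synthesis, gave 31, 44 and 34 against 10, 24 and 19 UMIs, or 12.04 ± 2.25 CPM and 11.6 ± 1.32 CPM (log2 fold change -0.03, SE 0.28, edgeR adjusted p = 0.954). Abcb8 had a log2 fold change of -0.08, Abcb6 of -0.22 and Abcd4, the lysosomal cobalamin transporter, of -0.17. The annotated gene Gm29253 ends in the same 300 bases as Abcb6, and the 3′ end of Abcd4 holds a stretch repeated in many other transcripts. Abcb9, a lysosomal peptide pump, gave 8, 17 and 15 UMIs against 4, 2 and 3 UMIs and was below the filter.

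Abcc8, the sulfonylurea receptor that forms the ATP-gated potassium channel of pancreatic beta cells, does not pump a substrate and spans chr7:46104523-46180033 on the minus strand. Counts were 238, 241 and 246 UMIs in Aire+/+ and 115, 207 and 269 UMIs in Aire−/−. Its level went from 80.1 ± 2.30 CPM to 131 ± 28.9 CPM, with the lowest Aire−/− library at 111 CPM and the highest Aire+/+ library at 82.6 CPM. Abcc8 rose 1.64-fold (log2 fold change 0.72, SE 0.16, edgeR adjusted p = 0.00631). Kcnj11, the pore subunit of the same channel, was at 4.19 ± 1.67 CPM and 5.40 ± 2.07 CPM and was not called. Abcc8's neighbour Abcc6, whose loss causes ectopic calcification, gave 9, 2 and 6 UMIs against 2, 1 and 0 UMIs. That is 2.80 times fewer at equal TMM-scaled depth (95% counting interval 0.81 to 14.9). Abcc12 gave 6, 12 and 4 UMIs against 3, 5 and 6 UMIs, and Abcg3, a rodent gene of the Abcg2 subfamily, was at 6.19 ± 1.94 CPM and 5.82 ± 2.47 CPM.

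Many of the 23 genes below the filter were seen in Aire+/+ libraries and rarely in Aire−/− libraries. Their mean CPM was higher in Aire+/+ for 19 and higher in Aire−/− for 4. For 12 of them every Aire−/− library lay below every Aire+/+ library (52.2%), and for 0 the reverse held. Among all genes of the table below the filter these shares were 38.2% and 3.25%. Over all 68 genes, 18 had every Aire−/− library below every Aire+/+ library and 9 had the reverse, against 24.5% and 13.2% of the table. The tested transporters gave 6 below and 9 above, against 20.2% and 16.3% of tested genes.

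Exactly 7 of the 68 genes had 0 UMIs in all Aire−/− libraries, among them Slc22a2, Slc22a20, Slc22a30, Slco1c1, Abcc2 and Abca14. None had 0 UMIs in all Aire+/+ libraries. Of all genes counted, 857 (5.48%) had 0 UMIs in all Aire−/− libraries. With every library thinned to the 1014581 UMIs of the smallest, 66.4, 65.4 and 65.8 of the 68 genes had at least 1 UMI in the Aire+/+ libraries, as means of 20 draws. The Aire−/− libraries held 54.0, 53.9 and 55.2. Unthinned, the counts were 68 in each Aire+/+ library and 54, 57 and 58 in the Aire−/− libraries. The table keeps only genes that reach 6 UMIs in some library. The Aire+/+ libraries are the deeper ones, and the part of this entry rule in these counts was not tested.

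**Figure D4:**
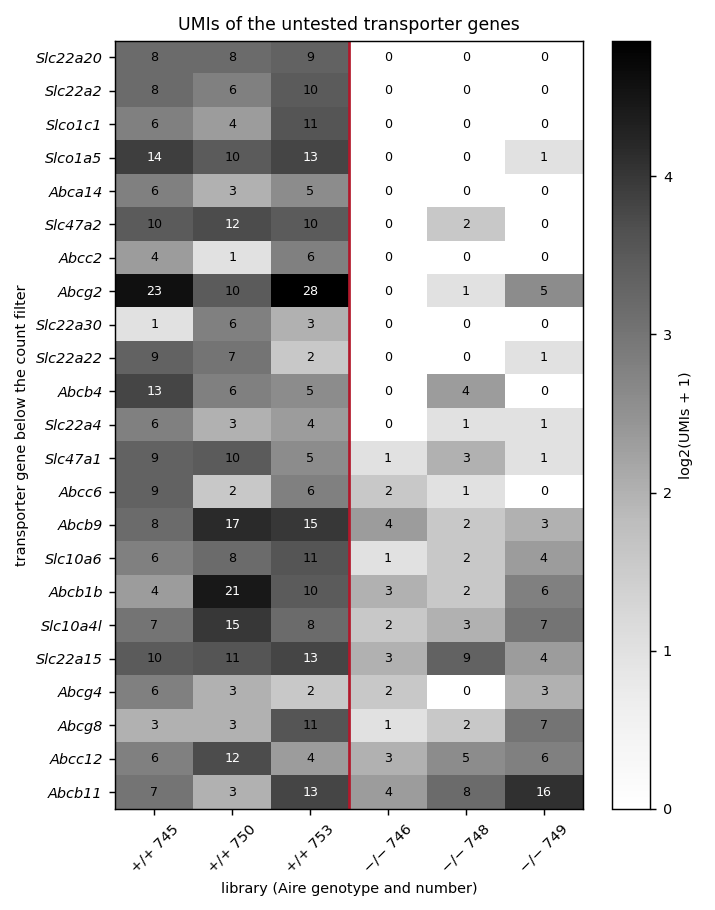
UMIs of the 23 transporter genes below the count filter in each library, shaded by log2(UMIs + 1); the red line parts the Aire+/+ libraries on the left from the shallower Aire−/− libraries on the right. The upper 12 genes are filled on the left and at 0 to 5 UMIs on the right, while Abcb11 in the last row reaches 16 UMIs in library 749.

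The filter decided whether these genes were tested, and 3 of the 45 tested genes passed it through the Aire+/+ libraries alone. All 3 were called lower, Slc22a13 and Slc22a14 among them, and their direction was set by how they passed. The main count of 5 lower is therefore no support for a difference. With a minimum count of 3 in place of 10, 62 of the 68 genes were tested, 11 were called lower (17.7%) and 7 higher (11.3%), against 14.2% and 7.47% of all genes tested that way. The 12 calls above were all kept. The 6 genes added to the calls were Slc22a2, Slc22a20, Slco1c1, Slco1a5, Slc47a2 and Abcg2, with edgeR adjusted p from 0.00474 for Slco1a5 to 0.0287 for Abcg2. Slc22a2, Slc22a20 and Slco1c1 had 0 UMIs in every Aire−/− library, and Slco1a5 and Slc47a2 at most 1 and 2 UMIs in any of them, so these 5 passed the looser filter through the Aire+/+ libraries alone. Their direction was set by how they passed, and the count of 11 is no support for a difference. Abcb11 had a log2 fold change of 1.29 and was not called (edgeR adjusted p = 0.120).

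The authors' deposited table holds their own DESeq2 results. It selects 6 of the 68 genes as higher in Aire+/+, among them Slc22a13, Slc22a14, Abca4, Abca13 and Abcg2, and 1 as higher in Aire−/−, which is Slc22a13b. Of all genes in the authors' deposited table, 7.14% and 2.28% were selected in these directions. The authors' deposited table gives 16 of the 68 genes an adjusted p up to 0.05, including the 12 genes called here and Abcg2, Slc22a2, Slc22a20 and Slco1a5.

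Partners of the transporters were taken from lists of known function. The counts called in each list are to be read beside the shares over all genes tested, 12.1% lower and 8.59% higher. No list was tested against these shares. Among the called partners, Gpbar1, Cyp8b1, Apob, Sftpb and Sftpc passed the count filter through the Aire+/+ libraries alone. The direction of these genes was set by how they passed. In bile acid synthesis and handling, 20 of 26 listed genes were in the table and 11 were tested, of which 3 fell and 2 rose, with a median log2 fold change of -0.26. Gpbar1, the cell-surface bile acid receptor, was counted at 12, 19 and 48 UMIs against 0 throughout Aire−/−, which is at least 13.0-fold lower (edgeR adjusted p = 0.00421). Cyp8b1, which makes cholic acid, gave 13, 26 and 13 UMIs against 1, 1 and 1 UMIs (edgeR adjusted p = 0.00468). That is 8.55 times fewer at equal TMM-scaled depth (95% counting interval 2.77 to 42.8). Fabp1, the liver fatty acid binding protein, fell by 2.07 on the log2 scale. Cyp27a1 and Hsd3b7, enzymes of bile acid synthesis, rose by 0.97 and 0.75. The number that fell was 1 without library 753 and 6, 6 and 8 without library 746, 748 or 749.

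Nuclear receptors and factors that regulate these transporters gave 12 tested genes of 21 in the table, with a median log2 fold change of 0.09. Cdx1, an intestinal homeobox factor, rose by 0.85 (edgeR adjusted p = 0.000474), and none was called lower by edgeR or DESeq2, with 2 lower at an unadjusted p under 0.05. Foxa1, a pioneer factor of liver and gut, was at 9.17 ± 0.09 CPM and 4.18 ± 2.36 CPM (edgeR adjusted p = 0.0769). The master regulators of bile acid and drug transport were below the filter. Nr1h4, the bile acid receptor FXR, gave 13, 11 and 9 UMIs against 1, 0 and 0 UMIs. Its target Nr0b2 gave 24, 9 and 28 UMIs, Hnf4a 14, 16 and 6, Cdx2 11, 12 and 14 and Nr1i3 9, 4 and 5 UMIs, all against 0 in each Aire−/− library. Nr1i2, the drug receptor PXR, gave 4, 11 and 5 UMIs against 10, 6 and 8 UMIs. The number called lower was 2 and 1 without library 750 or 753 and 5, 3 and 6 without library 746, 748 or 749.

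Cholesterol and lipoprotein partners of the lipid pumps gave 5 lower and 2 higher genes from 17 tested, with a median log2 fold change of -0.22. Apoa1, the acceptor of cholesterol from Abca1, was counted at 437, 392 and 462 UMIs against 2, 2 and 29 UMIs and fell by 4.27 on the log2 scale (edgeR adjusted p = 2.39e-05). Apob gave 59, 42 and 29 UMIs against 0 throughout Aire−/−, which is at least 21.4-fold lower (edgeR adjusted p = 0.000166). Apoc1 fell by 0.90 (edgeR adjusted p = 0.00132). Apoe, at 4329, 4961 and 4070 UMIs against 1412, 2382 and 3237 UMIs, was not called. Apoa4 fell and Pltp and Soat2 rose. The number that fell was 3 without library 753, and the number that rose was 0 without library 745, 750 or 753 and 1 without library 749.

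Peroxisomal proteins beside the Abcd pumps gave 2 lower and 3 higher genes from 17 tested, with a median log2 fold change of 0.13. Cat, the catalase that clears hydrogen peroxide, rose by 1.34 (edgeR adjusted p = 0.000256) and Scp2 by 0.57. Acaa1b fell by 1.15 and Phyh by 0.49. The number that fell was 1 without library 745, 750, 753 or 748, and the number that rose was 1 without library 750 or 753.

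Surfactant proteins beside Abca3 gave 3 lower genes from 6 tested, with a median log2 fold change of -1.94. Sftpc gave 35, 48 and 43 UMIs against 0 throughout Aire−/−, which is at least 20.7-fold lower (edgeR adjusted p = 6.81e-05). Sftpb gave 34, 29 and 40 UMIs against 0, 1 and 1 UMIs (edgeR adjusted p = 9.98e-05). That is 25.4 times fewer at equal TMM-scaled depth (95% counting interval 6.86 to 212.7). Sftpd fell by 3.42 on the log2 scale (edgeR adjusted p = 1.38e-05). None was called higher by edgeR or DESeq2, with 1 higher at an unadjusted p under 0.05. The number that fell was 5 without library 749, and 1 was called higher without library 746.

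Scaffolds and neighbours of renal and intestinal transporters gave 5 lower genes from 7 tested, with a median log2 fold change of -1.47. None was called higher by edgeR, by DESeq2 or at an unadjusted p under 0.05. Slc5a1 and Slc5a2, the sodium-glucose carriers, had log2 fold changes of -2.43 and -2.92 (edgeR adjusted p = 0.00524 and 0.00449). Pdzk1ip1 fell by 1.08, Slc9a3r2, a scaffold of the brush border, by 1.47 and Slc6a19, a neutral amino acid carrier, by 1.86. The number that fell was 3 without library 745 or 753 and 9 and 8 without library 746 or 749.

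Enzymes of drug metabolism gave 5 lower and 1 higher genes from 12 tested, with a median log2 fold change of -0.53. Cyp1a2, a hepatic cytochrome P450, was counted at 131, 131 and 154 UMIs against 0, 0 and 1 UMIs (edgeR adjusted p = 5.21e-07). That is 205.3 times fewer at equal TMM-scaled depth (95% counting interval 36.6 to 8128). Gstm1, a glutathione transferase, was counted at 692, 713 and 743 UMIs against 111, 136 and 136 UMIs and fell by 1.42 on the log2 scale (edgeR adjusted p = 4.51e-05). Gsta2 fell by 1.66 (edgeR adjusted p = 0.00013). The 1 higher gene, Nqo1, was not called without library 745, 750, 753 or 748.

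Markers of cell types that use these transporters, or that the sorted cells could include, are given beside the results. Over all genes tested, 12.1% were called lower and 8.59% higher, and no marker list was tested against these shares. Hepatocyte markers summed to 126 to 194 CPM in Aire+/+ and 51.3 to 80.1 CPM in Aire−/− libraries, with 6 of 9 tested genes lower and 1 higher, and Alb, Fgb and Cps1 at 0 UMIs in every Aire−/− library. Enterocyte markers summed to 548 to 651 CPM and 338 to 485 CPM, with 4 of 9 lower and Alpi at 0. Proximal tubule markers summed to 115 to 161 CPM and 30.7 to 84.4 CPM, with 2 of 4 lower and Kap at 0. Of further peripheral cell types, ciliated cells had 3 of 3 tested markers lower, keratinocytes 4 of 6 and microfold cells 2 of 6, and none of these was called higher by edgeR. Neuroendocrine markers summed to 384 to 453 CPM and 671 to 678 CPM, with 2 of 4 higher and 1 lower.

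Fibroblast markers summed to 67.4 to 105 CPM in Aire+/+ and 155 to 621 CPM in Aire−/− libraries, with 2 of 4 tested genes higher. Macrophage and dendritic cell markers summed to 1956 to 2437 CPM and 2223 to 4328 CPM, with 1 of 11 higher and 1 lower. Cortical epithelial markers summed to 441 to 566 CPM and 774 to 998 CPM, with 5 of 6 higher, and tuft cell markers to 87.3 to 127 CPM and 139 to 268 CPM, with 2 of 5 higher. B cell markers summed to 107 to 137 CPM and 96.5 to 196 CPM, with 1 of 4 higher. T cell markers summed to 158 to 266 CPM and 151 to 282 CPM, and none of 9 was called by edgeR, by DESeq2 or at an unadjusted p under 0.05. Endothelial markers summed to 58.8 to 90.2 CPM and 19.4 to 52.6 CPM, with 1 of 4 lower. Erythroid markers had 2 tested genes, 1 lower, at 26.2 to 38.0 CPM and 23.7 to 36.7 CPM. The part of any of these cells in the transporter results was not tested.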

How the data were processed

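Mature medullary thymic epithelial cells were sorted from dissociated thymi and sequenced with MARS-seq, per the labels' protocols. Per the submitters' processing notes the tools were STAR 2.4.2a, HTSeq and DESeq2, with bcl2fastq and cutadapt, on mm10. How UMIs and strand were handled, and with which annotation, is not given in the sources used here. The authors deposited raw UMI counts per gene, normalized counts (a signal, the raw counts divided by 1 size factor per library), log2 fold changes and p-values. The raw counts were tested here; the authors' log2 fold changes and adjusted p-values are quoted only as theirs.

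Genes were kept with filterByExpr (minimum count 10, a CPM of 4.26), scaled with TMM and fitted over all 6 libraries with edgeR 4.0.16 (quasi-likelihood, R 4.3.3), with Benjamini-Hochberg adjustment over all genes tested and a threshold of 0.05. DESeq2 1.42.0, other scalings and filters and left-out libraries were alternatives. The fit was tested on simulated counts. A group at 0 UMIs was set to 3 UMIs over the group for folds of summed counts. These folds and the ratios of low counts are over library totals scaled by the TMM factors. Groups at 1 to 3 UMIs have exact 95% intervals, and floors and intervals cover counting error only. A floor of 3 UMIs equals 1.04 to 1.10 CPM of the unscaled total in an Aire+/+ and 1.53 to 2.96 CPM in an Aire−/− library.

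The text names the transporters and partners below, except a few that enter the counts but are not reported here, with full values for called genes, genes at 0 UMIs in 1 genotype and members of known role. Of each partner list it names up to 3 tested genes with the smallest p and every called gene where 5 or fewer were called. Other partners, the untested nuclear receptors and Apoe among them, were chosen after their values were seen. The members and lists were chosen with earlier results of these data known. Copies of 3′ ends were searched with blastn 2.17.0 in GENCODE vM21 transcripts (GRCm38).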

Additional observations from a re-analysis of the deposited data

How the results depend on the processing

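No paired analysis was possible because the library numbers are not shared between genotypes. Of 144 values of the 12 called transporters under 12 alternatives, 129 kept the call and 15 lost it, all of Slc22a23, Slco2a1 or Slco5a1. Of 396 values of the other tested transporters none gained a call. Of 32 called partner genes, 20 kept the call wherever they were tested. The promoter CpG comparison was not run, since 48 of 68 genes have a window. Low counts kept 23 genes out of the test at a minimum count of 10, and 17 of them were tested at a minimum of 3. The cause of the changes below was not tested, beyond the number of genes or libraries that a setting tests.

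With library totals alone, 567 genes were called higher, as were 4 transporters and 3 solute carriers; nuclear receptors gave 2 lower, cholesterol partners 0 higher, peroxisomal proteins 1 higher, surfactant proteins 5 lower and drug enzymes 0 higher. With a minimum count of 3, as with no filter, 11 transporters, 8 solute carriers, 7 bile acid genes, 6 nuclear receptors and 8 scaffolds and renal partners were lower. DESeq2 gave 1 higher cholesterol partner, 1 lower peroxisomal gene and 0 higher drug enzymes. Without libraries 753 and 746, 652 genes were higher; bile acid genes gave 1 higher, nuclear receptors 1 lower, cholesterol partners 3 lower and 1 higher, peroxisomal proteins 1 lower and 1 higher, surfactant proteins 1 higher and drug enzymes 0 higher. Unthinned, 68 transporters were detected in an Aire+/+ and 56.3 in an Aire−/− library on average; thinned and at 3 UMIs or more, 56.4 and 46.4.

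Leaving out 1 library in turn gave 1098 to 1899 genes lower and 618 to 1156 higher. Transporters ranged from 5 to 7 lower and 4 to 7 higher, solute carriers from 3 to 5 and 3 to 6, ABC genes from 2 to 3 lower with 1 higher, and the median log2 fold change from 0.01 to 0.13. Lower and higher calls ranged from 1 to 8 and 2 to 2 for bile acid genes, 0 to 6 and 1 to 1 for nuclear receptors, 3 to 6 and 0 to 2 for cholesterol partners, 1 to 2 and 1 to 3 for peroxisomal proteins, 3 to 5 and 0 to 1 for surfactant proteins, 3 to 9 and 0 to 0 for scaffolds and renal partners, and 4 to 6 and 0 to 1 for drug enzymes.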
